A study of Homo sapiens with 6 samples.

Results

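The hepatocyte transcription factors described here are *HNF4A*, *HNF4G*, *FOXA1*, *FOXA2*, *FOXA3*, *CEBPA*, *NR1H4*, *NR5A2* and *PROX1*. They were chosen by symbol, and all 9 were found among the 21863 gene symbols of the deposited expression values. The values come from Hep G2, a human liver tumor line grown in culture. Cells were transfected with a dsRNA mimicking *miR-195*, with a dsRNA mimicking *miR-497* (each at 5 nM, collected after 24 hours), or were not transfected (NT, for which the labels give 0 hours). From each of the 3 conditions 1 total RNA library and 1 Ago2-IP library were sequenced, the second from RNA that came down with an antibody against Argonaute 2, the protein that holds a miRNA on its target mRNA. The study used these libraries to look for mRNAs drawn to Ago2 by the mimics. No cells transfected with a control dsRNA were among the 6 libraries, so the mimic itself and the act of transfection cannot be told apart.

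Hepatocyte identity rests on a small network of DNA-binding proteins that switch on one another and the genes of plasma proteins, lipoproteins and bile acid metabolism. *HNF4A* is its central nuclear receptor, the FOXA proteins open chromatin at liver enhancers, and *CEBPA* drives metabolic genes and restrains proliferation. *NR1H4* (FXR) senses bile acids, *NR5A2* (LRH-1) acts with it on bile acid synthesis, and *PROX1* represses HNF4A and NR5A2 activity.

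The question put to these genes is whether their mRNAs moved with the mimics, so the sequences that would pair come first. Both mature miRNAs carry the same seed, bases 2 to 8, shown in capitals, and their other bases mostly differ: 12 of 21 positions hold the same base.

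hsa-miR-195-5p: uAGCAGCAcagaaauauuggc

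hsa-miR-497-5p: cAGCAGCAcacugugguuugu

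They are RefSeq sequences placed on the minus strand of chromosome 17 in GRCh38.p14, *miR-195* at chr17:7017667-7017687 and *miR-497* at chr17:7017979-7017999. The word that pairs with the seed is TGCTGCT, searched on the mRNA strand in the 3′UTRs of all protein-coding transcripts of GENCODE release 44 on GRCh37 (hg19). It was found in 1 of the 9 factors, *HNF4A*, against 25.3% of the 18180 genes with a 3′UTR. The site lies on the plus strand of chromosome 20, in *HNF4A* at chr20:43058770-43058776, 465 bases into a 3′UTR of 3180 bases. It is printed here with 10 bases on each side and the site in capitals.

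HNF4A 3′UTR site: ctcctccttcTGCTGCTgcccccacct

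The base after the site is not A, so the 8-base word TGCTGCTA is absent, as it is from the 3′UTRs of all 9 factors (5.14% of all genes hold it). The 6-base word GCTGCT, which lies within the 7-base word, was found in 5 of the 9 factors, *HNF4A*, *HNF4G*, *FOXA3*, *NR1H4* and *PROX1*, against 45.9% of all genes. *FOXA1*, *FOXA2*, *CEBPA* and *NR5A2* held none of these words in any 3′UTR, although the canonical 3′UTR of *NR5A2* runs for 3205 bases and that of all genes has a median of 1116 bases.

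**Figure D1:**
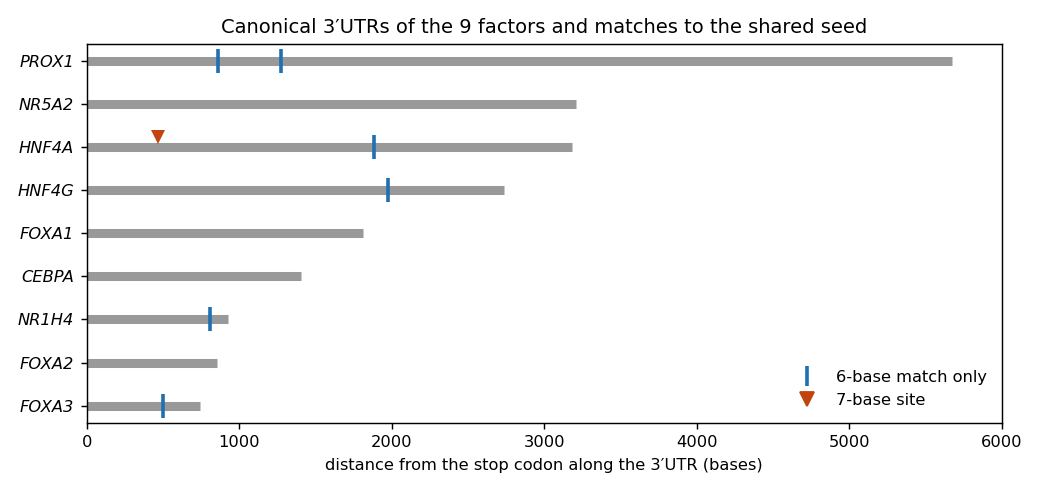
Canonical 3′UTRs of the 9 factors drawn to scale from the stop codon (x axis, bases), with matches to the seed shared by both mimics. The only 7-base site is in *HNF4A*, 465 bases from the stop codon. The 6-base matches outside it number 2 in *PROX1* and 1 each in *HNF4A*, *HNF4G*, *NR1H4* and *FOXA3*.

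The abundance of each gene was deposited as RPKM, which divides the reads of a gene by its length and by the reads mapped in that library, so levels of different genes can be compared. Each condition has 1 library per fraction. No spread between replicates and no test can be given for a difference between conditions, and the 95% intervals below cover counting error only unless stated. They rest on whole read numbers inferred from the RPKM steps, which succeeded for 8 of the 9 factors, and *HNF4A* has no interval. The libraries had an estimated 24730000 to 30970000 mapped reads for total RNA and 10650000 to 16830000 for Ago2-IP. These totals also rest on the GENCODE transcript lengths of 600 genes with a single transcript, since the annotation behind the RPKM is not given. Reads inferred for genes summed to 20034959 to 25180672 in total RNA. In Ago2-IP they were a smaller part, 3755088 of 16830000 in NT, 4116454 of 13620000 under *miR-195* and 2022094 of 10650000 under *miR-497*. These sums leave out genes without inferred reads. RPKM divides by all mapped reads, and the part of this in the Ago2-IP shifts below was not tested. All 8 hepatocyte markers examined were above 1 RPKM in total RNA (*AFP* 4294.6 to 4884.3 RPKM, *ALB* 53.4 to 61.4 RPKM), although *TTR* was only at 1.52 to 4.81 RPKM. The leukocyte markers *PTPRC* and *CD3E* and the cholangiocyte keratin *KRT7* were listed at 0 in all 6 libraries, the 3 endothelial markers stayed at or below 0.412 RPKM, *COL1A1* and *COL3A1* at or below 0.380 RPKM, and *PDGFRB* of the stromal markers reached 2.25 RPKM. Of markers for other cells *CD68* was at 10.5 to 13.8 RPKM in total RNA, and the bile duct markers *KRT19* and *SOX9* were also present, at 46.7 and 25.2 RPKM in NT. In such bulk libraries, fewer cells with an mRNA and less of it per cell cannot be told apart.

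*HNF4A* was the most abundant of the 9 in all 3 total RNA libraries, at 40.0 RPKM in NT, 36.4 under *miR-195* and 49.5 under *miR-497*. In Ago2-IP it stood at 11.3 RPKM in NT, 22.3 under *miR-195* and 7.42 under *miR-497*. Its total RNA was thus highest with the mimic under which its Ago2-IP level was lowest. The ratios to NT were 0.910 and 1.24 in total RNA, and in Ago2-IP 1.97 and 0.658, the *miR-195* mimic first each time. *HNF4G*, its paralog, was the least abundant of the 9, with 3.17, 2.60 and 2.85 RPKM in total RNA of NT, *miR-195* and *miR-497*. Its Ago2-IP values were 0.450, 0.449 and 0.390 RPKM, on 31, 25 and 17 reads. Its total RNA was lower under *miR-195* at a ratio of 0.819 (0.699 to 0.961), whereas the interval of its *miR-497* ratio and both its Ago2-IP intervals included no change. *HNF4A* made up 92.7% to 94.6% of the summed RPKM of the pair in total RNA.

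The 3 FOXA genes kept the same order in every library, with *FOXA1* first and *FOXA3* last. *FOXA1* was at 22.9 RPKM in NT total RNA, 20.5 under *miR-195* and 22.1 under *miR-497*. *FOXA2*, known for a role in bile acid homeostasis, was at 11.3, 14.6 and 13.9 RPKM in the same libraries. *FOXA3*, the form most restricted to endoderm, was at 8.15, 7.80 and 9.12 RPKM. *FOXA2* was thus higher with both mimics, at 1.29 times NT (1.17 to 1.43) and 1.23 times NT (1.12 to 1.36), while *FOXA1* was lower under *miR-195* at 0.893 times NT (0.836 to 0.954). With the median change of genes of like GC content subtracted, as described below, *FOXA2* stood at log2 ratios of 0.23 under *miR-195* and -0.16 under *miR-497*. The sum of the 3 genes changed little in total RNA, from 42.4 RPKM to 42.9 and 45.2, and the share of *FOXA1* in it was 54.1% in NT, 47.8% under *miR-195* and 49.0% under *miR-497*.

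In Ago2-IP the family lay above NT under *miR-195* and below it under *miR-497*, although relative to the median gene *FOXA1* was lower with both mimics, at -0.19 and -0.84 on the log2 scale. *FOXA1* went from 12.6 RPKM in NT to 15.4 under *miR-195* and 6.04 under *miR-497*. *FOXA2* went from 2.05 RPKM to 4.78 and 1.44, and *FOXA3* from 1.22 RPKM to 2.62 and 0.519. All 3 genes were highest under *miR-195* and lowest under *miR-497*. With *miR-195* the ratios to NT were 1.22 (1.09 to 1.36) for *FOXA1*, 2.34 (1.78 to 3.09) for *FOXA2* and 2.14 (1.44 to 3.23) for *FOXA3*. With *miR-497* they were 0.477 (0.405 to 0.560) for *FOXA1* and 0.424 (0.196 to 0.840) for *FOXA3*, the latter on 11 reads, and the interval of *FOXA2* at 0.704 (0.465 to 1.05) included no change. *FOXA1* held 79.5% of the family's summed Ago2-IP RPKM in NT, against 54.1% of its total RNA.

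*CEBPA*, a leucine zipper factor, was at 27.3 RPKM in NT total RNA, 24.5 under *miR-195* and 33.1 under *miR-497*. In Ago2-IP it was at 5.57, 10.4 and 3.19 RPKM. As with *HNF4A* and *FOXA3*, the mimic with the highest total RNA level had the lowest Ago2-IP level and the reverse. The ratios of *CEBPA* to NT were 0.899 (0.842 to 0.961) and 1.21 (1.14 to 1.29) in total RNA and, for Ago2-IP, 1.87 (1.58 to 2.20) and 0.572 (0.443 to 0.733), all 4 with intervals that excluded no change. After subtraction of the median change of genes of like GC content, described below, *CEBPA* stood at log2 ratios of -0.37 and -0.47 in total RNA. In Ago2-IP it then stood at -0.25 and -0.32. *HNF4A* stood at -0.20 and 0.01 in total RNA and at 0.28 and -0.33 in Ago2-IP, *miR-195* first each time.

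*NR1H4* was at 12.7 RPKM in NT total RNA, 14.9 under *miR-195* and 13.1 under *miR-497*, whereas its Ago2-IP values were 4.63, 7.71 and 6.001 RPKM. It was the only one of the 9 above its NT level in both mimic libraries of Ago2-IP, at 1.67 times NT (1.36 to 2.05) and 1.296 times NT (1.03 to 1.63). *NR5A2* was at 9.46, 8.33 and 7.95 RPKM in total RNA, and its Ago2-IP values were 7.20, 7.34 and 5.82 RPKM. It was the only factor whose total RNA was lower with both mimics and whose intervals both excluded no change, at 0.881 (0.813 to 0.955) and 0.841 (0.776 to 0.911) times NT. After subtraction of the median change of genes of like GC content, described below, *NR5A2* stood at log2 ratios of -0.0796 and -0.0639. The deposited differences are under 1.5-fold, and no spread between cultures is known for either.

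*PROX1*, a homeodomain factor and corepressor, was at 18.0 RPKM in NT total RNA, 19.9 under *miR-195* and 19.0 under *miR-497*. In Ago2-IP it was at 15.7, 26.6 and 14.3 RPKM, the highest Ago2-IP level of the 9 in each condition. Its total RNA varied least of the 9, with the highest library 1.10 times the lowest. Its Ago2-IP level was 1.69 times NT (1.55 to 1.86) under *miR-195* and 0.911 times NT (0.812 to 1.02) under *miR-497*. The inferred reads, scaled by GENCODE transcript lengths as above, imply a gene model of 3071 bases for *PROX1*. Its canonical transcript has 8468 bases with a 3′UTR of 5676 bases, which alone is longer than that model.

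**Figure D2:**
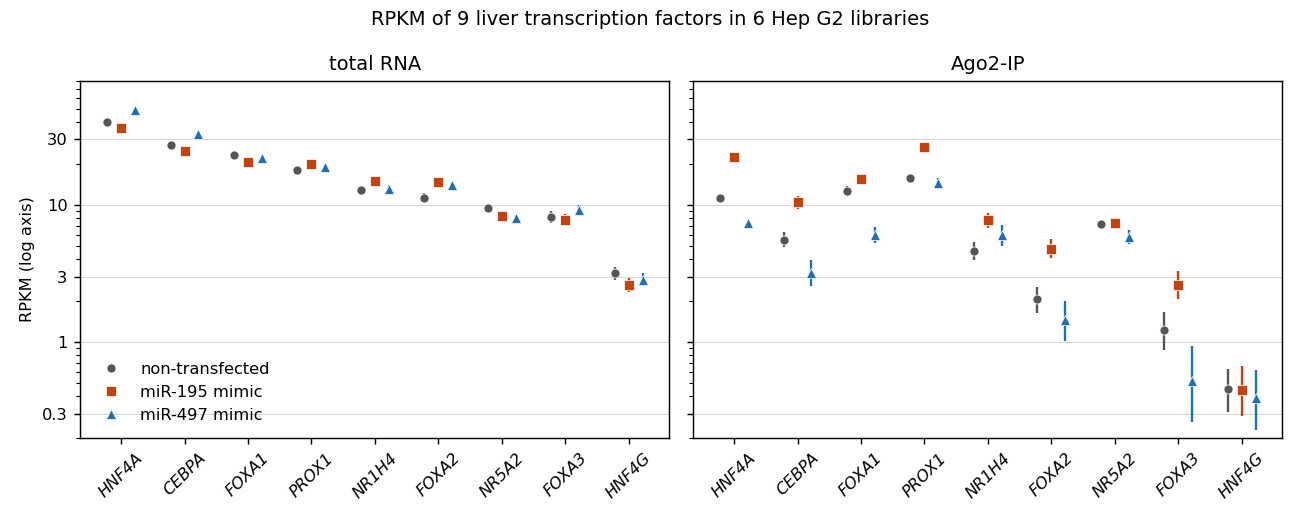
RPKM (log axis) of the 9 factors in the 3 total RNA libraries and the 3 Ago2-IP libraries, 1 library per point, with 95% counting intervals as bars where reads could be inferred. In total RNA the 3 conditions lie close together for every gene, from *HNF4A* at 36.4 to 49.5 RPKM down to *HNF4G* at 2.60 to 3.17 RPKM. In Ago2-IP *PROX1* is highest and the conditions lie further apart.

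The order of levels in NT total RNA was *HNF4A*, *CEBPA*, *FOXA1*, *PROX1*, *NR1H4*, *FOXA2*, *NR5A2*, *FOXA3* and *HNF4G*. The closest neighbours there were *NR1H4* and *FOXA2*, at a ratio of 1.13 (1.01 to 1.26), and *NR5A2* and *FOXA3*, at 1.16 (1.04 to 1.303), each just beyond counting error. In Ago2-IP of NT the order was *PROX1*, *FOXA1*, *HNF4A*, *NR5A2*, *CEBPA*, *NR1H4*, *FOXA2*, *FOXA3* and *HNF4G*, where the ratio of *CEBPA* to *NR1H4*, 1.20 (0.984 to 1.47), was within counting error and that of *FOXA2* to *FOXA3*, 1.67 (1.14 to 2.49), was not. *PROX1* exceeded 74.5% of the genes above 0 in NT total RNA and 95% of those in NT Ago2-IP, and *NR5A2* exceeded 60.2% and 83.1%. *FOXA3* took the opposite course, from 57.1% in total RNA to 39.1% in Ago2-IP.

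In total RNA none of the 9 factors moved by 1.5-fold or more with either mimic. Among all 14740 genes above 0 in both libraries, 13.3% were higher and 8.62% lower by this fold under *miR-195*, and among 14768 genes 19.1% were higher and 5.53% lower under *miR-497*. The log2 ratios of the 9 ran from -0.29 for *HNF4G* to 0.37 for *FOXA2* under *miR-195*, with a median of -0.14 against 0.02 for all genes, and from -0.25 for *NR5A2* to 0.31 for *HNF4A* under *miR-497*, with a median of 0.08 against 0.09. The 2 comparisons share the NT library and are not independent of each other. With *miR-195*, the intervals of 3 factors (*FOXA2*, *NR1H4* and *PROX1*) lay above no change and those of 4 (*HNF4G*, *FOXA1*, *CEBPA* and *NR5A2*) below it. With *miR-497*, those of *FOXA2* and *CEBPA* lay above and that of *NR5A2* below. The change of *HNF4A*, which carries the only 7-base site, ranked above 34.0% of all genes under *miR-195* and above 65.4% under *miR-497*.

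In Ago2-IP 6 of the 9 factors were higher by 1.5-fold or more under *miR-195*, and 43.8% of all 14291 genes were. These were *HNF4A*, *FOXA2*, *FOXA3*, *CEBPA*, *NR1H4* and *PROX1*. None was lower by that fold, against 6.25% of genes. With *miR-497*, 4 of the 9 were lower by 1.5-fold or more (*HNF4A*, *FOXA1*, *FOXA3* and *CEBPA*), against 19.1% of 13866 genes, and none was higher, against 8.78%. The libraries as a whole shifted the same way: the median gene was at a log2 ratio of 0.48 under *miR-195* and -0.23 under *miR-497*. Relative to that median, 2 factors remained 1.5-fold higher under *miR-195* (*FOXA2* and *FOXA3*, against 21.4% of genes), while under *miR-497* 2 remained lower (*FOXA1* and *FOXA3*, against 10.3%) and *NR1H4* came out higher (against 12.3%). *FOXA3* under *miR-497* ranked above only 3.87% of all genes and *FOXA1* above 5.50%, whereas *NR1H4* ranked above 88.1%.

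**Figure D3:**
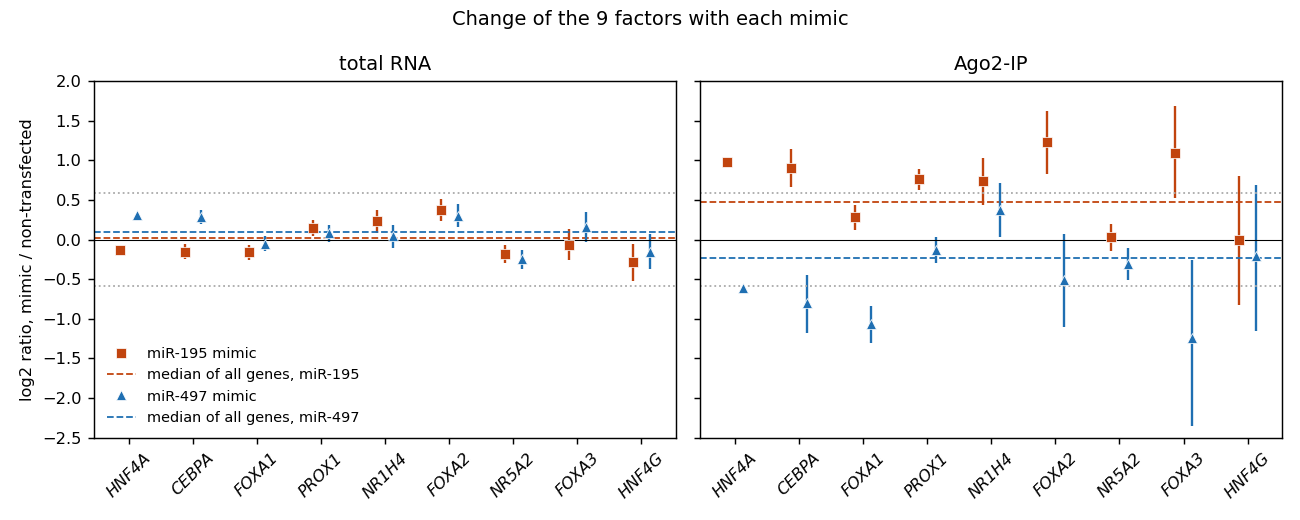
log2 ratio of RPKM with each mimic to NT for the 9 factors, total RNA left and Ago2-IP right, with 95% counting intervals where reads could be inferred. Dashed lines are the medians of all genes (in the Ago2-IP panel 0.48 for *miR-195*, -0.23 for *miR-497*) and dotted lines mark 1.5-fold. In total RNA all points lie within the dotted lines, and in Ago2-IP the *miR-195* point is above the *miR-497* point for each gene.

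The share of each mRNA in the Ago2 fraction without a mimic was read by dividing the Ago2-IP level by the total RNA level in NT. It was 0.873 (0.799 to 0.953) for *PROX1*, 0.761 (0.689 to 0.840) for *NR5A2*, 0.552 (0.504 to 0.603) for *FOXA1*, 0.364 (0.305 to 0.431) for *NR1H4* and 0.282 for *HNF4A*. The other 4 were at or below 0.204, namely *CEBPA* at 0.204 (0.178 to 0.234), *FOXA2* at 0.181 (0.143 to 0.228), *FOXA3* at 0.1503 (0.106 to 0.208) and *HNF4G* at 0.142 (0.0948 to 0.206). Because RPKM is a share of each library, these ratios order the genes and do not give an absolute fraction. Libraries were made with or without poly-A selection, the sources used here do not say which, and its part in these ratios was not tested. The median gene was at 0.326. By the 1.5-fold rule 7 factors were lower in Ago2-IP than in total RNA, as were 77.7% of 14101 genes, and none was higher, against 8.14%. Set against the median gene, *PROX1*, *NR5A2* and *FOXA1* were at least 1.5-fold above it (as were 32.3% of genes) and *CEBPA*, *FOXA2*, *FOXA3* and *HNF4G* at least 1.5-fold below it (31.2%).

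*PROX1* and *NR5A2* had the highest ratios of the 9 in all 3 conditions. The ratio of *NR5A2* was 0.881 under *miR-195* and 0.733 under *miR-497*, and that of *PROX1* was 1.34 and 0.754. Over the 3 conditions, each taken as a pair of libraries, limma with Benjamini-Hochberg adjustment put 7 factors lower in Ago2-IP (73.6% of 13298 genes above 0 in all 6 libraries) and none higher (4.84%). The log2 differences of these 7 ran from -2.81 for *FOXA3* (SE 0.52, adjusted p = 0.0071) to -1.05 for *FOXA1* (SE 0.33, adjusted p = 0.0365), lower in 3 of 3 conditions each. The call of *FOXA1* was lost in limma without *miR-497* (adjusted p = 0.142) or without NT (adjusted p = 0.106), and that of *NR1H4* without NT (adjusted p = 0.0987). *PROX1* at -0.06 (95% interval -0.69 to 0.57) and *NR5A2* at -0.34 (-0.84 to 0.16) did not pass the test. With the median of each library subtracted, limma put *PROX1* at 1.53 (SE 0.19, adjusted p = 0.000342) and *NR5A2* at 1.25 (SE 0.22, adjusted p = 0.00188) higher in Ago2-IP (23.4% of genes) and *HNF4G*, *FOXA2*, *FOXA3* and *CEBPA* lower (27% of genes). In that limma fit *FOXA1* turned to 0.54 (adjusted p = 0.0595) and *NR1H4* to 0.41 (adjusted p = 0.164), and *HNF4A* stood at -0.17 (adjusted p = 0.585). The conditions are not replicates of each other, so this spread holds differences between them as well. The ratios of *FOXA3*, *CEBPA*, *HNF4A* and *FOXA2* differed most between the mimics. *CEBPA* stood at 0.424 under *miR-195* and 0.0962 under *miR-497*, *FOXA3* at 0.336 and 0.0569, *HNF4A* at 0.612 and 0.1501, and *FOXA2* at 0.328 and 0.104. *FOXA1*, above the median gene in NT, stood at 0.273 under *miR-497*, where the median gene was at 0.261. Across the 9 factors the NT ratio went with the length of the canonical 3′UTR (Spearman's rho = 0.63, n = 9 genes of the same 2 libraries), and across 8815 genes of at least 1 RPKM the same correlation was 0.33. *PROX1*, highest in both, entered with a 3′UTR of 5676 bases, longer than the gene model of 3071 bases that its reads imply. *HNF4A* and *HNF4G*, with 3′UTRs of 3180 and 2738 bases, stood lower than *FOXA1* with 1813 bases.

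**Figure D4:**
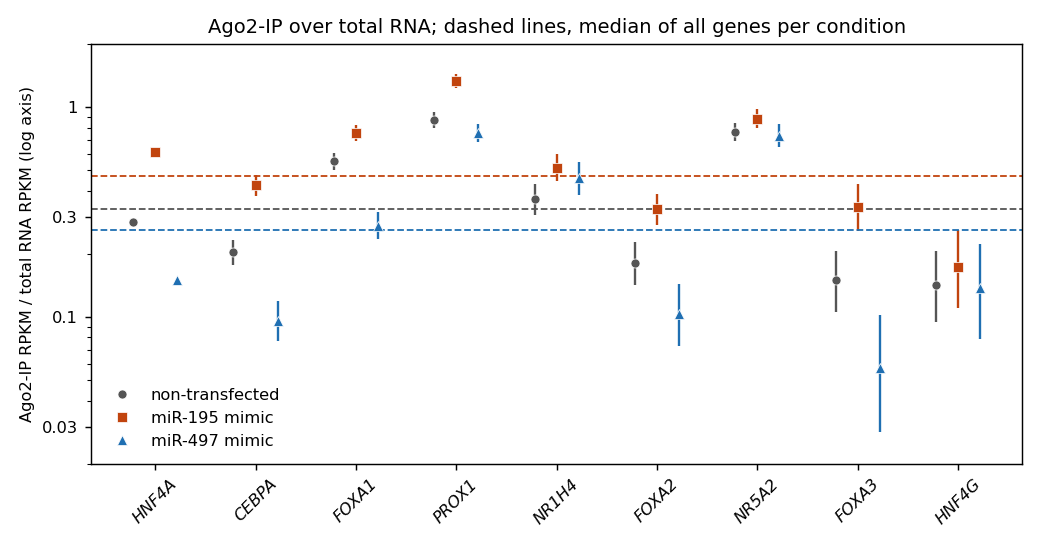
Ago2-IP RPKM divided by total RNA RPKM (log axis) for the 9 factors in the 3 conditions, with 95% counting intervals where reads could be inferred. Dashed lines are the medians of all genes in each condition (0.326 in NT, 0.469 under *miR-195* and 0.261 under *miR-497*). *PROX1* and *NR5A2* lie above the line of their condition in all 3, and *FOXA2*, *FOXA3*, *CEBPA* and *HNF4G* below it in all 3.

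The fold enrichment score, by which the study ranked candidate targets, divides the ratio of Ago2-IP to total RNA with a mimic by the same ratio in NT. With *miR-195* the highest scores of the 9 were 2.24 (1.49 to 3.36) for *FOXA3*, 2.17 for *HNF4A* and 2.08 (1.74 to 2.47) for *CEBPA*, and the lowest was 1.16 (1.004 to 1.33) for *NR5A2*. The median of 13749 scored genes was 1.38, and 6 of the 9 factors lay above it. None reached the score of 2.63 that bounds the highest 10% of genes. With *miR-497* the highest score was 1.26 (0.984 to 1.61) for *NR1H4*, above 88.4% of 13430 genes, and the others were below 1. *FOXA3* at 0.379 (0.192 to 0.746), *CEBPA* at 0.471 (0.367 to 0.606) and *FOXA1* at 0.495 (0.417 to 0.586) were lowest, where the median gene was at 0.824. When the median score of genes of like GC content was subtracted, as described below, the log2 score of *CEBPA* under *miR-497* turned from -1.09 to 0.15. Those of *FOXA3* and *FOXA1* then stood at -0.60 and -0.65. Under *miR-195* the log2 score of *FOXA3* went from 1.16 to 0.36 and that of *CEBPA* from 1.05 to 0.08. *HNF4A*, the factor with a 7-base site, had a score above 83.5% of genes under *miR-195* and above 18.9% under *miR-497*, without a counting interval. After the GC subtraction its log2 scores were 0.49 and -0.38. Both miRNAs carry the same seed, and the part of the site in these scores was not tested.

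The changes also went with base composition. The canonical transcripts of *HNF4G*, *NR5A2*, *NR1H4* and *PROX1* are 35.9% to 40.7% GC, that of *FOXA1* is 50.4%, and those of *HNF4A*, *FOXA2*, *FOXA3* and *CEBPA* are 55.0% to 65.9%. Spearman's rho between GC content and the log2 ratio to NT was 0.78 in total RNA under *miR-497*, both across the 9 factors and across 10211 genes of at least 1 RPKM. In total RNA under *miR-195* it was 0.40 for the 9 and 0.29 for 10181 genes. In Ago2-IP it was 0.83 for the 9 and 0.56 for 8868 genes under *miR-195*, and -0.72 and -0.25 (8368 genes) under *miR-497*. All points of a panel share 2 libraries, and the part of GC content in the changes of the 9 was not tested. After the median change of genes of like GC content was subtracted, 1 factor, *PROX1* at 0.61 on the log2 scale, was still 1.5-fold higher in Ago2-IP under *miR-195*. So were 15.2% of 12864 genes. There *NR1H4* at 0.58 fell just short of that fold, and *HNF4A* at 0.28, *FOXA2* at 0.27, *FOXA3* at 0.14 and *CEBPA* at -0.25 lay further below it. With *miR-497* *FOXA1* at -0.79 and *FOXA3* at -0.90 were still lower by that fold, as were 8.62% of 12510 genes. In total RNA under *miR-497*, *CEBPA* then stood at -0.47, *FOXA3* at -0.30, *FOXA2* at -0.16 and *HNF4G* at 0.12, each with the opposite sign to its deposited value.

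**Figure D5:**
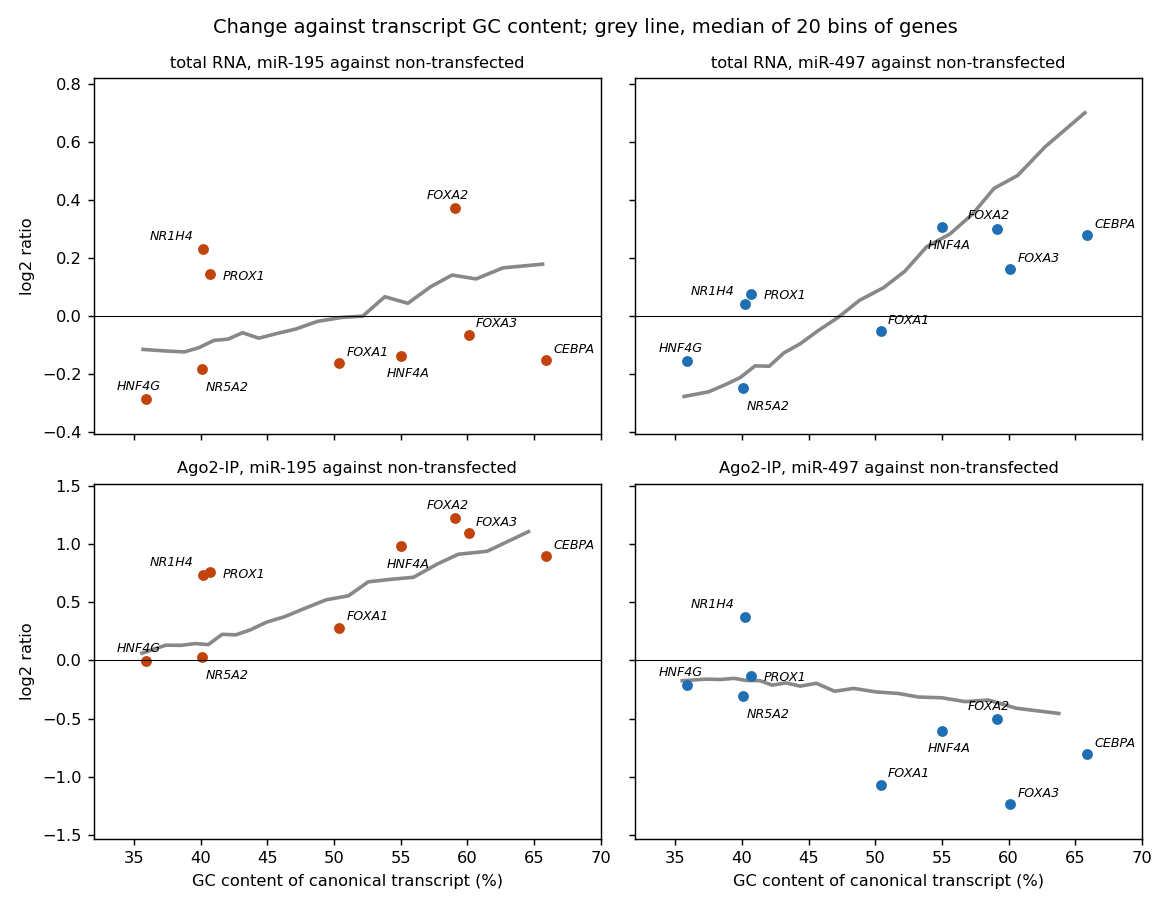
log2 ratio of RPKM with a mimic to NT against the GC content of the canonical transcript (%), for the 9 factors (points) in total RNA and Ago2-IP. The grey line joins the medians of 20 equal-sized bins of genes of at least 1 RPKM. The line rises with GC content in 3 panels and falls in Ago2-IP under *miR-497*, where *FOXA1* and *FOXA3* lie furthest below it.

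Among other liver transcription factors, 18 of 22 had at least 1 RPKM in all 3 total RNA libraries. In NT the most abundant were *XBP1* of the secretory pathway (242, 251 and 240 RPKM in NT, *miR-195* and *miR-497*), *CEBPG* (28.8, 25.2 and 22.5 RPKM), *TBX3* (22.4, 20.6 and 21.4 RPKM) and *HHEX* (19.7, 25.1 and 21.4 RPKM). By 1.5-fold, none was higher and only *CREB3L3* (2.32 to 1.37 RPKM, named after its value was seen) was lower under *miR-195*, where 5.48% and 6.13% of genes of at least 1 RPKM were. With *miR-497*, *NFIX* (1.58 to 2.77 RPKM), *MLXIPL* (18.7 to 29.4 RPKM), the glucose-responsive factor, and *CEBPD* (5.01 to 7.87 RPKM, named after its value was seen) were higher and none was lower, where 11.3% and 2.88% of genes were. The median log2 ratio of the list was -0.03 and 0.14, against -0.01 and 0.05 for all genes.

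Of 24 other nuclear receptors, 20 had at least 1 RPKM in all total RNA libraries. *NR1H2*, an oxysterol receptor, was the only one higher by 1.5-fold under *miR-195* and also the most raised under *miR-497*, at 4.13, 6.35 and 8.56 RPKM. With *miR-497* *ESRRA*, *NR2F1* and *NR2F6* were also higher and *NR3C1*, the glucocorticoid receptor, was lower at 10.5, 9.71 and 5.88 RPKM. That is 4 of 21 receptors higher and 1 lower, beside 11.3% and 2.88% of all genes of at least 1 RPKM, and under *miR-195* 1 of 20 higher beside 5.48%. *NR1D2*, a clock receptor, was lower with both mimics by less than 1.5-fold, at 6.01, 4.27 and 4.13 RPKM. *ESRRA*, *NR2F1* and *NR2F6* were named after their values were seen. The list's median log2 ratio was -0.02 under *miR-195* and 0.38 under *miR-497*, against -0.01 and 0.05 for all genes. Of 14 coregulators compared, none moved by 1.5-fold in total RNA with either mimic. The genes named by the rule were *NCOR1*, a corepressor (28.0, 23.7 and 19.99 RPKM), *SIRT1*, a deacetylase (21.6, 16.5 and 15.6 RPKM), and *PPARGC1B*, a coactivator (1.29, 1.43 and 1.60 RPKM).

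The genes these factors control were read in the same way. Of 12 bile acid genes compared, only *FGFR4* (45.1 to 19.4 RPKM), the FGF19 receptor, was lower by 1.5-fold under *miR-195*, beside 6.13% of all genes, and none was higher, beside 5.48%. With *miR-497* *SLC27A5*, which activates bile acids for conjugation (2.02 to 3.25 RPKM), and *SDC1* (25.3 to 39.9 RPKM) were higher, beside 11.3% of all genes, and none was lower, beside 2.88%. *ICAM1* was at 12.04, 15.9 and 16.1 RPKM. Of 24 hepatocyte genes, *TTR* (1.52 to 4.81 RPKM) and *TAT* (1.36 to 2.23 RPKM) were higher and *MTTP* (9.22 to 5.18 RPKM) was lower under *miR-195*. With *miR-497* *TTR* (2.68 RPKM), *ASGR1* (84.2 to 147 RPKM) and *APOA1* (635 to 958 RPKM) were higher and *IGFBP1* (54.8 to 30.4 RPKM) was lower. The shares of all genes given for the bile acid list apply to these 24 genes too. *FGFR4*, *MTTP* and *APOA1* were named after their values were seen. The median log2 ratios of the bile acid and hepatocyte lists, 0.13 and 0.03 under *miR-195* and 0.20 and 0.16 under *miR-497*, stand beside -0.01 and 0.05 for all genes.

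The same lists were read in Ago2-IP. With *miR-195*, 40.8% of genes of at least 1 RPKM were higher and 3% lower by 1.5-fold. Of the other liver factors 6 of 16 were higher, of the other receptors 11 of 19 and of the hepatocyte genes 11 of 19, and none of these was lower. Of the coregulators 1 of 12 (*HDAC3*) was higher, and of the bile acid genes 5 of 9 (*NR0B2*, *SDC1*, *SCARB1*, *ICAM1* and *CYP27A1*) were higher and *KLB* was lower. With *miR-497*, where 1.92% were higher and 14.2% lower, 3 of 14 other liver factors (*CEBPG* and *ZHX2* among them) and 3 of 14 other receptors (*ESRRA*, *NR0B2* and *NR3C1*) were lower and none was higher. Of 9 bile acid genes *NR0B2*, *FGFR4* and *CYP27A1* were lower, of 12 coregulators none was, and of 21 hepatocyte genes *FGB* was higher and *IGFBP1* lower. Of 12 paralogs of the FOX and CEBP families, 5 were lower under *miR-497* (*FOXM1*, *FOXK2*, *FOXP1*, *FOXQ1* and *CEBPG*), beside *FOXA1*, *FOXA3* and *CEBPA* above. *ZHX2*, *NR0B2*, *HDAC3*, *SCARB1*, *CYP27A1*, *KLB*, *FGB*, *FOXK2* and *FOXP1* were named after their values were seen. The hepatocyte genes had a lower ratio of Ago2-IP to total RNA in NT than the factors, with a median log2 ratio of -3.45 against -1.83 for the 9 factors and -1.83 for all genes of at least 1 RPKM.

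Of 18 FOX and CEBP paralogs compared in total RNA, 2 were lower by 1.5-fold under *miR-195*, beside 6.13% of all genes, *FOXM1*, a factor of proliferating cells (29.0 to 15.7 RPKM), and *FOXK1* (3.97 to 2.02 RPKM). None was higher, beside 5.48%. With *miR-497* 1 of 18, *CEBPD*, was higher, beside 11.3% of all genes, and none was lower, beside 2.88%. *FOXQ1* was at 36.995, 51.3 and 47.2 RPKM. Of 4 genes compared from the bile duct, intestinal and pancreatic list, *KRT19* was higher with both mimics, at 46.7, 103 and 108 RPKM, while *KRT7* was listed at 0. The same shares of all genes, 5.48% and 11.3%, stand beside it. *SOX9*, a bile duct factor, was at 25.2, 29.8 and 28.6 RPKM. In Ago2-IP under *miR-195*, where 40.8% of genes of at least 1 RPKM were higher, *KRT19*, *SOX9* and *EPCAM* (named after its value was seen) were higher. So were 5 of 15 FOX and CEBP paralogs (*FOXP4*, *CEBPB*, *FOXK2*, *FOXQ1* and *FOXN3*, of which only *FOXQ1* was named by rule).

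The genes whose values over the 6 libraries most resembled each factor were found by the distance between log2 RPKM centred within each gene, among 8575 other genes of at least 1 RPKM in every library. The nearest were *FAM105B* to *NR5A2* (distance 0.0440), *CBX2* to *HNF4A* (0.107), *SHANK2* to *PROX1* (0.107), *TRIM8* to *CEBPA* (0.142), *PIGS* to *FOXA2* (0.149), *WDR44* to *NR1H4* (0.174) and *GTPBP2* to *FOXA1* (0.250). The second nearest, in the same order, were *WDR7* (0.105), *TBC1D16* (0.154), *ZNF778* (0.189), *PLEKHJ1* (0.156), *VKORC1* (0.187), *HLCS* (0.178) and *ALG2* (0.259), and the median gene lay at 1.3 to 2.23. Among the factors themselves *FOXA2* and *CEBPA* were closest, at 0.523, followed by *HNF4A* and *CEBPA* at 0.684 and *NR5A2* and *PROX1* at 0.695. *FOXA2* and *PROX1* were farthest apart, at 2.99. *FOXA3* and *HNF4G* fell below 1 RPKM in Ago2-IP libraries and were left out of this comparison.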

How the data were processed

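Single reads of 36 bases were aligned by the authors to hg19 using ELANDv2, and CASAVA 1.7 turned them into the deposited RPKM values. The gene annotation is not given in the sources used here, nor is it stated which libraries had poly-A selection. RPKM values were used as deposited, and the lines of 28 symbols listed more than once were averaged. A ratio was calculated for genes above 0 in both libraries, and a change was counted from 1.5-fold in either direction. With 1 library per group no difference between conditions could be tested. Ago2-IP was tested against total RNA with limma on log2 RPKM (no pseudocount, genes above 0 in all 6 libraries), with the 3 conditions as blocks and 2 residual degrees of freedom. This test was added after seeing the data and was tested on simulated data. Whole reads were inferred from the RPKM steps for 93% of 15487 genes, after the inference had been tested on simulated data, and gave exact Poisson intervals for levels, exact Clopper-Pearson intervals for ratios and log-normal intervals for scores, each at 95%. Symbols were matched to GENCODE directly or, for 1793 genes, through a unique RefSeq synonym. List genes were named where they had at least 1 RPKM in total RNA, were among the 4 with the largest mean absolute log2 change of their list and moved the same way with both mimics, or were among the 4 most abundant other liver transcription factors. The 9 members and the lists were chosen with earlier results of these data known. SLC51A, SLC51B and OSTALPHA, of the bile acid list, were not matched. Alternatives were a scaling by the median RPKM, pseudocounts of 0.1 and 1, a minimum of 1 RPKM, a fold of 2, lines kept apart, other site lengths and, added after seeing the data, a subtraction of the median within 20 bins of transcript GC content. GC content was known for 95.3% of genes of at least 1 RPKM in all 6 libraries. The subtraction used all genes above 0 in the libraries compared that had a GC value, 12864 of 14291 for Ago2-IP under *miR-195*. Python 3.11.15, numpy 2.4.6, pandas 2.3.3, scipy 1.17.1, matplotlib 3.10.9, R 4.3.3 and limma 3.58.1 were used. 1 gene of the lists is counted there but not reported here by name.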

Additional observations from a re-analysis of the deposited data

Results flagged for a closer look

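The following factors were picked out because a value moved in opposite directions in a pair of comparisons that share an NT library or a mimic, each with a counting interval that excluded no change. None of these differences was tested, since each value comes from 1 library. *HNF4A* has no counting interval and so could not be picked out. Its log2 ratios also had opposite signs, 0.98 under *miR-195* and -0.60 under *miR-497* in Ago2-IP, and -0.14 and 0.31 in total RNA. In Ago2-IP, *FOXA3* was at a log2 ratio of 1.10 under *miR-195* and -1.24 under *miR-497*, a difference of 2.34. *CEBPA* was at 0.90 and -0.81, a difference of 1.71, and *FOXA1* at 0.28 and -1.07, a difference of 1.35. In total RNA *CEBPA* was at -0.15 under *miR-195* and 0.28 under *miR-497*, a difference of -0.43. Between fractions with the same mimic, total RNA minus Ago2-IP came to -1.05 for *CEBPA* and -0.45 for *FOXA1* under *miR-195*, and to 1.09 for *CEBPA* under *miR-497*. The medians of all genes in Ago2-IP, 0.48 under *miR-195* and -0.23 under *miR-497*, lay on the same sides as these factors, *FOXA1* relative to the first stood at -0.19, and the transcripts of *CEBPA* (65.9% GC) and *FOXA3* (60.1% GC) are among the richer in GC. After subtraction of the median change of genes of like GC content, *CEBPA* had the same sign with both mimics, at -0.37 and -0.47 in total RNA and at -0.25 and -0.32 in Ago2-IP, and so did *FOXA1* in Ago2-IP, at -0.24 and -0.79, while *FOXA3* in Ago2-IP kept opposite signs, at 0.14 and -0.90.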

How the results depend on the processing

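In total RNA no factor moved by 1.5-fold under any of the alternatives. In Ago2-IP under *miR-195*, the 6 higher factors became 1 after scaling by the median RPKM, where 20.2% of all genes were higher. They became 1 after subtraction of the median of the same GC bin (15.2% of genes) and 2 at a fold of 2 (23.7%). With *miR-497*, the 4 lower factors became 2 under each of these settings and with a pseudocount of 1. The shares of all genes lower were 9.31%, 8.62% and 6.27% in the same order, and 5.72% with the pseudocount. After scaling 1 higher factor appeared, beside 13.3% of genes. For Ago2-IP against total RNA in NT, the 0 higher and 7 lower factors became 3 and 4 after scaling, beside 32.8% and 30.6% of genes. After the GC subtraction they became 3 and 3, beside 30.4% and 30.5%. There *FOXA1* turned to a log2 ratio of 0.78 after scaling and 0.83 after the GC subtraction, and *NR1H4* to 0.18 and 0.0695. *CEBPA* in Ago2-IP under *miR-195* turned to -0.25 after the GC subtraction, and *NR5A2* in total RNA moved to -0.0796 and -0.0639 under the mimics, within 0.1 of no change. Scaling moves the median log2 ratio of all genes in these 3 comparisons close to 0, and both settings subtract a change shared by many genes. The factors with a score above the median gene under *miR-497* went from 4 to 2 after the GC subtraction and to 3 with a pseudocount of 1, and under *miR-195* from 6 to 7, 7 and 9 after the GC subtraction and with pseudocounts of 0.1 and 1. A site of 6 bases was found in 5 factors and one of 8 bases in 0, against 1 for 7 bases. A pseudocount of 0.1 left all 63 single values within their counting intervals or within 0.1 on the log2 scale, and a pseudocount of 1 left 60. By the same measure, scaling by the median RPKM left only 26 of the 63, and the GC subtraction left 23. No paired analysis was possible because each group has 1 library, apart from the fractions, which limma compared with the 3 conditions as pairs. There the 0 higher and 7 lower factors became 2 and 4 with library medians subtracted, beside 23.4% and 27% of genes. Leaving out each condition in turn gave 0 higher, beside 3.19% to 5.14% of genes, and 5 to 7 lower, beside 52.5% to 76%. *FOXA3*, *FOXA2* and *HNF4G* rest on 11 to 37 reads in Ago2-IP under *miR-497*, so smaller changes of these were not detectable at this depth.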
